A study of Homo sapiens with 6 samples.

Results

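The genes described here are 10 subunits of the INO80, TIP60 and SRCAP chromatin remodelling complexes: *RUVBL1*, *RUVBL2*, *ACTL6A*, *YEATS4*, *DMAP1*, *INO80*, *EP400*, *TRRAP*, *KAT5* and *ING3*. They were taken by gene symbol from the 7093 genes of a pooled CRISPR screen, and all 10 were present. Their guides made up 98 of the 71626 rows of the count table, 8 for *YEATS4* and 10 for each of the others. All 98 guides had enough reads in the library to be tested. The cells were HAP1, an established human leukaemia line with nearly 1 copy of each chromosome. Guide abundance was measured in 2 samples of the guide library, 2 of parental HAP1 cells and 2 of HAP1 cells mutant for SETD2, the enzyme that trimethylates H3K36. Both cell lines received the guides at a multiplicity of infection of 0.7 and were kept under puromycin for 12 doublings. The mutant is labelled by genotype alone, with no number of clones, and how the library samples were obtained is not stated. Each line was split into its replicates only after transduction.

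INO80, TIP60 and SRCAP are large assemblies built around a motor of the SNF2 family. SRCAP and the EP400 motor of TIP60 load the histone variant H2A.Z into nucleosomes, INO80 slides nucleosomes, and TIP60 also acetylates histones H4 and H2A through KAT5. The complexes share parts, among them the ring-forming RUVBL1 and RUVBL2 ATPases and actin-like proteins, so loss of 1 subunit can affect several of them. Some of the 10 genes also work outside this family: ACTL6A is also a subunit of SWI/SNF remodellers, TRRAP of the SAGA coactivator, and RUVBL1 and RUVBL2 help to assemble the large kinases related to PI3-kinase.

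Total counts were 34679351 to 38428425 for the library and 34003792 to 38197301 for the parental samples, while SETD2-mutant replicates 1 and 2 had 25082426 and 33878004. SETD2-mutant replicate 1 was the shallowest sample. Replicates differed by counting error and little more in the library (chi-square over its degrees of freedom 1.37, where counting error gives about 1), and by far more in the parental (14.1) and SETD2-mutant (12.9) cells. As a check of the genotype, *SETD2* guides were depleted in the parental line (−1.12), while their change of −0.61 in the mutant line was not called. In the mutant line 5 of these guides were down and 5 up. Between the lines *SETD2* was called enriched (0.50), with 8 of 10 guides up.

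Values per sample are the mean over a gene's guides of log2 CPM (counts scaled to a common library total) minus the mean of the library samples, so −1 is a halving of guide abundance. Fold changes with a standard error (SE, over guides) are from the edgeR fit of each guide. A gene is called depleted or enriched where robust rank aggregation (RRA) of the edgeR guide ranks gave an adjusted p below 0.05.

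Guides to most of these subunits were lost from both lines. Of the 10 genes, 8 were depleted in parental cells relative to the library, as were 9.90% of the 7090 genes tested, and 9 in SETD2-mutant cells, as were 9.04%. In all 10 both replicates of each line lay below both library samples, as they did in 45.6% of all genes for parental and 49.2% for SETD2-mutant cells. By edgeR with RRA 0 of the 10 were enriched in either line, where 1.11% of all genes were, and 0 had an unadjusted p under 0.05 for enrichment (0 also by limma on gene means). Limma on gene means and summed counts per gene called all 10 depleted in each line, but these tests also called 31.5% and 30.3% of all genes depleted in parental and 38.1% and 32.7% in SETD2-mutant cells, and summed counts called 29.5% and 30.2% enriched. Over the 10 genes the median was −2.25 in the parental and −2.86 in the mutant line, against −0.01 and −0.05 over all genes tested. For scale, 51 cytosolic ribosomal protein genes had medians of −3.58 and −4.13. In each line 7 of the 10 genes lay in the lowest 5% of genes by mean change.

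Scaling on the 100 guides labelled dummyguide, in place of TMM, moved the median of all genes to −0.79 in parental cells, −0.97 in SETD2-mutant cells and −0.18 between the lines, and the changes given here are relative to the bulk of genes.

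**Figure D1:**
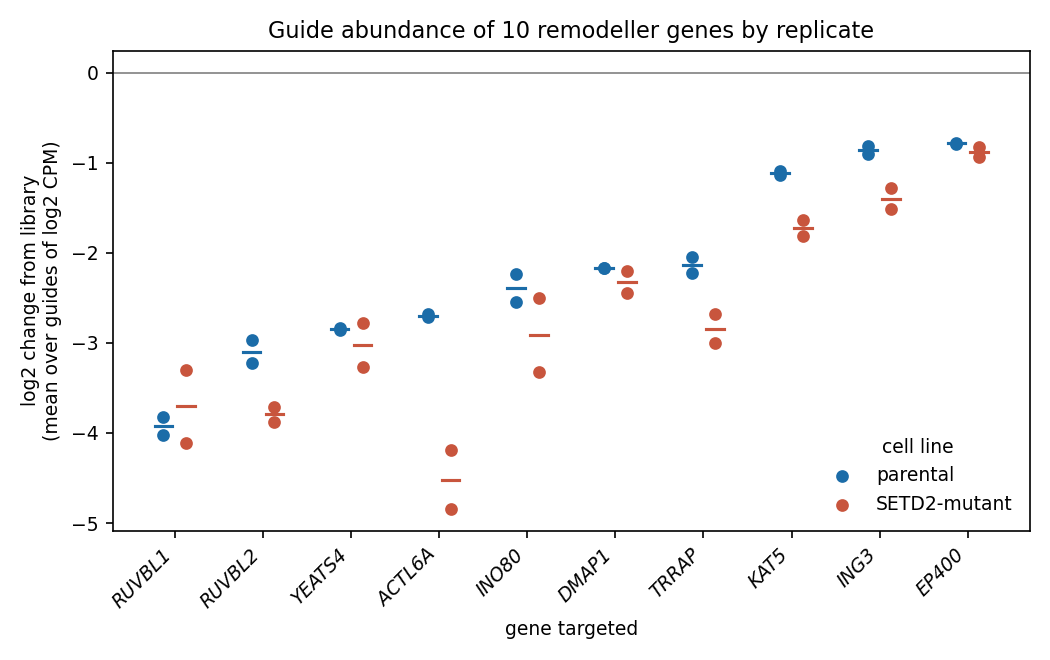
Mean log2 change from library (vertical axis, log2 CPM averaged over guides) for each of the 10 genes (horizontal axis), with 1 point per replicate and a bar at the mean of 2 replicates, parental cells in blue and SETD2-mutant cells in red. *ACTL6A* lies at −2.68 and −2.72 in parental cells and at −4.84 and −4.19 in SETD2-mutant cells, the widest gap between the lines.

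The AAA+ ATPases RUVBL1 and RUVBL2, which form the ring shared by all 3 complexes, were among the most depleted. *RUVBL1* (chromosome 3, 128064785 to 128153914 on GRCh38) stood at −4.02 and −3.82 in the parental replicates and at −4.11 and −3.30 in the SETD2-mutant replicates. Its summed guide abundance fell to 8.01% and 8.61% of the library level in the parental replicates and to 11.03% and 14.5% in the SETD2-mutant replicates. In the fit it was depleted by −3.98 (SE 0.430) in parental and −3.72 (SE 0.588) in SETD2-mutant cells, with 10 of 10 guides down in each. *RUVBL2* (chromosome 19, 48993448 to 49015995) stood at −3.22 and −2.97 in parental and −3.88 and −3.71 in SETD2-mutant cells. It was depleted by −3.07 (SE 0.423) and −3.74 (SE 0.580), again with all 10 guides down. By edgeR and RRA the adjusted p was at most 8.87e-07 for these values. The most depleted *RUVBL1* guide in parental cells, HZD_EPI_06037, had 813 and 775 counts in the library samples, 11 and 24 in parental and 64 and 82 in SETD2-mutant cells. The least depleted, HZD_EPI_06038, had 222 and 178, then 74 and 58, then 48 and 49. For *RUVBL2* the corresponding guides were HZD_EPI_06046, with 1576 and 1332, 47 and 48, and 54 and 29 counts, and HZD_EPI_06051, with 1470 and 1310, 715 and 620, and 553 and 772. Even the least depleted guide to either gene thus lost reads in each line.

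YEATS4, a reader of acetylated histones, and DMAP1 belong to both TIP60 and SRCAP, and ACTL6A is an actin-related protein that binds the motor subunit. *YEATS4* (chromosome 12, 69359743 to 69427072) stood at −2.85 and −2.84 in the parental replicates and −2.78 and −3.27 in the SETD2-mutant replicates, and all 8 guides fell in each line. *DMAP1* (chromosome 1, 44213471 to 44220673) stood at −2.16 and −2.17 in parental and −2.20 and −2.44 in SETD2-mutant cells. The *YEATS4* replicates of the lines overlapped, and the *DMAP1* replicates were close without overlap. *YEATS4* was depleted by −2.84 (SE 0.363) and −2.998 (SE 0.398), with adjusted p of at most 7.28e-05 by edgeR and RRA. *DMAP1* was depleted by −2.15 (SE 0.515, adjusted p = 0.00879 from edgeR with RRA) in the parental line and −2.35 (SE 0.637, adjusted p = 0.0195) in SETD2-mutant cells. The SETD2-mutant call was lost with scaling on the 100 guides labelled dummyguide (adjusted p = 0.296) and when RRA used a rank share limit of 0.1 (0.218). Guides to *DMAP1* ranged widely in parental cells, from HZD_EPI_01581 with 277 and 296 library counts and 11 and 5 left, to HZD_EPI_01587 with 747 and 644 library counts and 653 and 525 left. Those of *YEATS4* ran from HZD_EPI_07909, with 468 and 425 library counts and 33 and 10 left, to HZD_EPI_07904, with 628 and 613 library counts and 203 and 289 left.

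*ACTL6A* (chromosome 3, 179562926 to 179588407) stood at −2.68 and −2.72 in the parental replicates and at −4.84 and −4.19 in SETD2-mutant replicates 1 and 2. The SETD2-mutant values lay below both parental values, as in 38.8% of all genes. It was depleted against library by −2.68 (SE 0.470) in parental and −5.01 (SE 0.872) in SETD2-mutant cells, with 10 of 10 guides down and adjusted p of 0.000224 and 7.77e-06 by edgeR and RRA.

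The motors of INO80 and TIP60 had unlike values. *INO80* (chromosome 15, 40978880 to 41116280), the ATPase of the complex named after it, stood at −2.55 and −2.23 in parental and −3.32 and −2.50 in SETD2-mutant cells. It was depleted by −2.35 (SE 0.485, adjusted p = 0.000159 by edgeR and RRA) and −2.78 (SE 0.440, adjusted p = 0.000113). *EP400* (chromosome 12, 131949942 to 132080460), the ATPase of the TIP60 complex, stood at only −0.78 and −0.79 in parental and −0.82 and −0.93 in SETD2-mutant cells. All 4 values were close together, and it was the 1 gene of the 10 called in neither line, at −0.78 (SE 0.410, adjusted p = 0.480 by edgeR and RRA) and −0.86 (SE 0.324, adjusted p = 0.277). Limma on gene means, with its high share of called genes given above, did call it, at −0.78 and −0.88. The *INO80* guides ran in parental cells from HZD_EPI_03527, with 388 and 310 library counts and 19 and 7 left, to HZD_EPI_03530, which rose from 167 and 144 to 253 and 239.

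TRRAP is the large scaffold of TIP60 that contacts activators such as MYC, KAT5 is the acetyltransferase, and ING3 is a reader of H3K4 methylation in the same complex. *TRRAP* (chromosome 7, 98878532 to 99013241) stood at −2.23 and −2.04 in parental and −2.68 and −3.003 in SETD2-mutant cells. *KAT5* (chromosome 11, 65712018 to 65719604) stood at −1.13 and −1.09 in parental and −1.64 and −1.81 in SETD2-mutant cells. *ING3* (chromosome 7, 120950777 to 120977216) stood at −0.90 and −0.81 in parental and −1.28 and −1.52 in SETD2-mutant cells. For each of these genes both SETD2-mutant replicates lay below both parental replicates, which also held for 38.8% of all genes. *TRRAP* was depleted by −2.16 (SE 0.463) and −2.94 (SE 0.665), and *KAT5* by −1.11 (SE 0.286) and −1.73 (SE 0.360), with adjusted p of at most 0.00208 by edgeR and RRA. *ING3* was not called in parental cells (−0.85, SE 0.213, adjusted p = 0.155) and was depleted in SETD2-mutant cells (−1.38, SE 0.289, adjusted p = 0.000204), a call that was lost at a rank share limit of 0.1 (adjusted p = 1). The difference between the lines was itself not called for *ING3* (adjusted p = 0.198). Its most depleted guide in parental cells, HZD_EPI_03496, went from 395 and 305 library counts to 75 and 81, and its least depleted, HZD_EPI_03501, stayed at 108 and 97 from 97 and 99.

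On the per-sample scale the order in parental cells, from most to least depleted, was *RUVBL1* at −3.92 ± 0.144 (SD, n = 2), *RUVBL2* at −3.10 ± 0.175, *YEATS4* at −2.84 ± 0.0113, *ACTL6A* at −2.70 ± 0.0231, *INO80* at −2.39 ± 0.226, *DMAP1* at −2.17 ± 0.0024, *TRRAP* at −2.13 ± 0.130, *KAT5* at −1.11 ± 0.030, *ING3* at −0.86 ± 0.0629 and *EP400* at −0.78 ± 0.0099. Of the 9 pairs of neighbours in this order, the replicates of 1 pair overlapped, *DMAP1* and *TRRAP*. These SDs cover replicates split after transduction and not the spread among guides. In parental cells the SE over guides was 0.363 for *YEATS4*, 0.470 for *ACTL6A*, 0.485 for *INO80* and 0.515 for *DMAP1*. In either line, replicates without overlap therefore do not show that neighbours in the order differ. In SETD2-mutant cells *ACTL6A* came first at −4.52 ± 0.458, followed by *RUVBL2* at −3.79 ± 0.121, *RUVBL1* at −3.71 ± 0.574, *YEATS4* at −3.02 ± 0.346, *INO80* at −2.91 ± 0.581, *TRRAP* at −2.84 ± 0.228, *DMAP1* at −2.32 ± 0.169, *KAT5* at −1.73 ± 0.124, *ING3* at −1.40 ± 0.166 and *EP400* at −0.88 ± 0.0793. Here 3 pairs overlapped, *RUVBL2* with *RUVBL1*, *YEATS4* with *INO80*, and *INO80* with *TRRAP*. The 3 least depleted genes, *KAT5*, *ING3* and *EP400*, were the same in each line.

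The comparison of SETD2-mutant with parental cells asks which gene losses the mutant tolerates less well or better. *ACTL6A* was the 1 gene of the 10 called, depleted by −2.33 (SE 0.536, 9 of 10 guides down, adjusted p = 0.0114 by edgeR and RRA), where 1.28% of all genes were depleted and 1.03% enriched. No gene of the 10 was enriched, and 0 had an unadjusted p under 0.05 for enrichment by edgeR with RRA or a call by limma. The 10 guides to *ACTL6A* summed to 153 and 155 CPM in the library samples, 40.7 and 35.0 CPM in parental replicates 1 and 2, and 14.8 and 23.2 CPM in SETD2-mutant replicates 1 and 2. Parental cells thus kept 26.4% and 22.8% of the library level, and SETD2-mutant cells 9.59% and 15.05%. By mean change *ACTL6A* ranked among the lowest 0.0564% of genes between the lines. The median change of its 21 uncalled neighbours within 5 Mb was −0.07.

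The size and the call of the *ACTL6A* difference depended on the analysis. With counts under 3 set to 3 in every sample the change was −1.64 (adjusted p = 0.0569), and the call was also lost with dummyguide scaling (−2.43, 0.0530), DESeq2 per guide (−2.28, 0.0750), only the 2 groups fitted (−2.33, 0.0767), a rank share limit of 0.1 (0.326), without parental replicate 2 (−2.19, 0.0593) and without SETD2-mutant replicate 1 (−2.14, 0.282). The call was kept without SETD2-mutant replicate 2 (−3.48, 0.0323), without parental replicate 1 (−2.21, 0.0446) and with summed counts per gene, where the change was −0.98 (0.00333). Ribosomal protein genes dropped out further in SETD2-mutant than in parental cells, and when the SETD2-mutant changes were multiplied by 0.877 to give both lines the same ribosomal median, limma per guide with RRA called *ACTL6A* (−1.26, adjusted p = 0.0229, against −1.82 without that factor).

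Single guides show where the *ACTL6A* difference lay. Guide HZD_EPI_00028 had 682 and 675 counts in the library samples, 374 and 380 in parental and 63 and 65 in SETD2-mutant cells (raw counts, as for all guides here). Guide HZD_EPI_00029 fell from 459 and 426 library counts to 249 and 158 in parental and 6 and 50 in SETD2-mutant cells. These guides, the least depleted in parental cells at −0.80 and −1.09, stood at −3.07 and −3.73 in SETD2-mutant cells. Guide HZD_EPI_00021 went from 1234 and 1042 counts in the library to 211 and 162 in parental and 24 and 79 in SETD2-mutant cells. For each of these guides both SETD2-mutant counts lay below both parental counts.

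Guide HZD_EPI_00023 went the other way between the lines (0.41), with 290 and 222 counts in parental and 149 and 436 in SETD2-mutant cells, so its SETD2-mutant replicates lay on either side of the parental ones. Guide HZD_EPI_00030, with 233 and 196 library counts, was down to 3 and 6 in parental cells and to 0 in both SETD2-mutant replicates, where a fold change has no fixed size. Guides HZD_EPI_00027, HZD_EPI_00024 and HZD_EPI_00025 were also near the end of what counts can show, with 9 and 18, 13 and 68, and 89 and 17 counts in parental cells and 0 and 3, 0 and 9, and 2 and 2 in SETD2-mutant cells. Guide HZD_EPI_00022 had 86 and 43 counts in parental and 20 and 10 in SETD2-mutant cells. Guide HZD_EPI_00026, with 219 and 100 in parental and 106 and 129 in SETD2-mutant cells, barely differed (−0.13). Of the 10 guides, 6 were depleted between the lines by edgeR per guide, as were 12.8% of all guides.

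**Figure D2:**
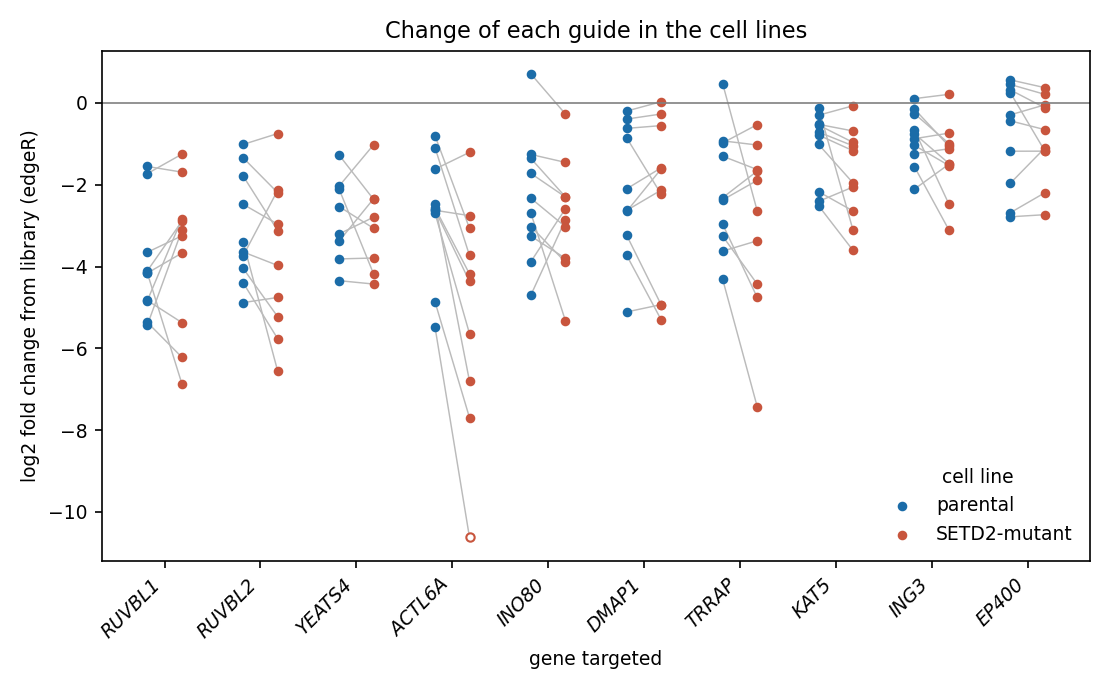
Log2 fold change from library of each guide (vertical axis, edgeR) for the 10 genes (horizontal axis), with a line joining the same guide in parental cells (blue) and SETD2-mutant cells (red). The open circle marks the *ACTL6A* guide with 0 counts in both SETD2-mutant replicates, whose fitted value depends on the prior count. Guides of *ACTL6A* mostly fall from left to right, whereas those of *RUVBL1* and *DMAP1* go both ways.

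The other 9 genes were not called between the lines by edgeR with RRA. Their changes were −0.78 (SE 0.458) for *TRRAP*, −0.67 (SE 0.398) for *RUVBL2*, −0.62 (SE 0.300) for *KAT5*, −0.53 (SE 0.247) for *ING3*, −0.43 (SE 0.393) for *INO80*, −0.20 (SE 0.309) for *DMAP1*, −0.16 (SE 0.374) for *YEATS4*, −0.09 (SE 0.193) for *EP400* and 0.27 (SE 0.461) for *RUVBL1*. Thus 9 of 10 genes had a mean below 0, with a median of −0.48 against −0.04 over all genes. The guides were more mixed, with 60 of the 98 below 0. Guides to *YEATS4* and *EP400* were evenly split, and 7 of 10 to *DMAP1* rose (median over guides 0.15). In 7 of the 10 genes both SETD2-mutant replicates lay below both parental replicates, as they did in 38.8% of all genes. In 0 of the 10 genes both lay above, as in 26.9% of all genes. Before adjustment, 4 of the 10 had an RRA p under 0.05 for depletion, as had 7.53% of all genes. These were *ACTL6A*, *ING3* (0.00446), *KAT5* (0.00557) and *RUVBL2* (0.0308). Limma on gene means called 5 depleted, among 22.4% of all genes, and summed counts per gene called 7 depleted and 1, *RUVBL1*, enriched, among 21.2% and 20.0% of all genes. *RUVBL1* turned to −0.97 without SETD2-mutant replicate 2. In SETD2-mutant replicate 1 its guides HZD_EPI_06040 and HZD_EPI_06041 had 0 counts, where a fold change has no fixed size. Its summed abundance in that replicate, 11.03% of the library level, was above both parental replicates (8.01% and 8.61%). The mean over guides of log2 CPM stood at −4.11 there, against −4.02 and −3.82 in parental cells. With all samples and counts under 3 set to 3 the *RUVBL1* change was 0.39. Without SETD2-mutant replicate 1 *TRRAP* stood at −1.30, *YEATS4* at −0.49, *DMAP1* at −0.42 and *EP400* at −0.17, each over 1.5 times its change with all samples. *INO80* stood at −1.06 without SETD2-mutant replicate 2, and at −0.18 without SETD2-mutant replicate 1 and −0.19 without parental replicate 2. *TRRAP* stood at −0.32 with summed counts and −0.36 at equal ribosomal dropout. The median of the ribosomal protein genes was −0.68, and at equal ribosomal dropout *DMAP1*, *YEATS4* and *EP400* turned to 0.13, 0.19 and 0.01.

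Guides to the same gene often differed. Against library, edgeR per guide called 80 of the 98 guides depleted in parental cells (21.1% of all guides were) and 88 in SETD2-mutant cells (23.7%), with 3 and 1 enriched (18.9% and 22.2% of all guides). Between the lines 26 were depleted and 7 enriched (12.8% and 11.5%). In *RUVBL1*, *RUVBL2* and *YEATS4* every guide was depleted in both lines. *EP400* was split, with 4 guides depleted and 3 enriched in parental cells, from −2.78 for HZD_EPI_01900 to 0.56 for HZD_EPI_01906. HZD_EPI_01900 went from 861 and 847 library counts to 132 and 109 in parental and 94 and 110 in SETD2-mutant cells. HZD_EPI_01906 went from 1252 and 1071 to 1864 and 1473 in parental and 956 and 1468 in SETD2-mutant cells. The mean of *EP400* therefore joins guides of opposite direction.

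In *KAT5* and *TRRAP* 1 guide each changed far more between the lines than most other guides of the gene. The *KAT5* guide HZD_EPI_03692 had 1729 and 1529 library counts, 1564 and 1355 in parental and 138 and 160 in SETD2-mutant cells, a change of −3.001 between the lines. The other *KAT5* guides lay between −1.09 and 0.35, and the median over its guides was −0.40. The *TRRAP* guide HZD_EPI_07451 had 345 and 314 library counts, 408 and 472 in parental and 28 and 58 in SETD2-mutant cells, at −3.11. The median over *TRRAP* guides was −0.21, much smaller in size than the mean of −0.78. For *ACTL6A* the median over guides, −2.45, was close to the mean. The replicates of a line were split from each other after transduction. The most depleted guides of these genes in parental cells were HZD_EPI_03688 for *KAT5*, from 1470 and 1416 counts to 294 and 200, and HZD_EPI_07448 for *TRRAP*, from 259 and 224 to 7 and 16. The latter had 2 and 0 counts in SETD2-mutant cells, too few to size its change between the lines, which was not called (adjusted p = 0.0611 by edgeR per guide).

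The other subunits of the 3 complexes were a list of 23 measured genes. In parental cells 10 were depleted and 2 enriched, with a median of −1.13, where 9.90% and 1.11% of all genes were called. In SETD2-mutant cells 13 were depleted and 0 enriched, with a median of −1.35, where 9.04% and 1.11% of all genes were called. The enriched genes were *EPC2* (0.42) and *MORF4L2* (0.57), and both were below 0 with dummyguide scaling (−0.36 and −0.21), which moved the median of all genes from −0.01 to −0.79 and so left both above that median. The *MORF4L2* call was lost with that scaling and in 8 other settings, among them each that left out a library or parental replicate (adjusted p 0.0717 to 0.248). In SRCAP, the ARP6 subunit *ACTR6* was the most depleted of the list, at −2.99 in parental and −3.72 in SETD2-mutant cells, and the motor *SRCAP* stood at −1.72 and −1.87. *VPS72*, the H2A.Z-binding subunit of SRCAP and TIP60, was depleted at −1.50 and −1.61. In INO80, the actin-related subunit *ACTR8* was depleted at −2.46 and −2.08, *MCRS1* at −2.01 and −2.29, the transcription factor gene *YY1* at −1.60 and −1.35 and *INO80B* at −1.17 and −1.31. The deubiquitinase *UCHL5* (−1.47 and −1.99) and, in SRCAP, *ZNHIT1* (−1.05 and −1.30) were called in SETD2-mutant cells and not in parental cells, a difference that was itself not called. *ACTR5*, the partner of *ACTR8*, stood at −1.14 and −0.63 and was not called in either line. In TIP60, the bromodomain subunit *BRD8* was depleted at −1.65 and −1.70 and *MRGBP* at −1.65 and −1.94. H2A.Z itself was read through its main gene *H2AFZ*, which was depleted at −2.37 and −2.88, whereas the second H2A.Z gene *H2AFV* stood at −0.18 and −0.02 and the H2A.Z chaperone *ANP32E* at −0.29 and −0.50, with neither called.

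Between the lines 3 of the 23 genes were depleted and 2 enriched, as were 1.28% and 1.03% of all genes, and the median was −0.28. *TFPT*, an INO80 subunit, stood at −0.16 and −0.29 in the parental replicates and at −1.51 and −1.38 in the SETD2-mutant replicates, and was depleted between the lines by −1.21 (SE 0.425, 7 of 10 guides down, adjusted p = 0.00283 by edgeR and RRA). *EPC2*, a scaffold of TIP60, stood at 0.28 and 0.51 in parental and −0.62 and −0.58 in SETD2-mutant cells, and was depleted by −1.02 (SE 0.195, 10 of 10 guides down, adjusted p = 0.00104). *MBTD1*, a methyl-lysine reader of TIP60, stood at −1.18 and −1.10 in parental and −2.03 and −1.97 in SETD2-mutant cells, and was depleted by −0.84 (SE 0.268, adjusted p = 0.0317). For each of them both SETD2-mutant replicates lay below both parental replicates, as they did in 38.8% of all genes. The *EPC2* call held in all 20 alternatives, that of *TFPT* was lost without parental replicate 1 (adjusted p = 0.0649), and that of *MBTD1* was lost in 8 of 20, among them each fit that left out a cell sample (adjusted p 0.0681 to 0.304).

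The enriched genes were *INO80C* and *MORF4L1*. *INO80C* stood at −0.63 and −0.62 in parental and 0.13 and −0.05 in SETD2-mutant cells, and rose by 0.67 between the lines (SE 0.123, 10 of 10 guides up, adjusted p = 0.00611 with edgeR and RRA). Its 16 uncalled neighbours within 5 Mb on chromosome 18 had a median change of 0.29, and the part of that region in its change was not tested. *MORF4L1*, a TIP60 subunit that binds methylated H3K36, stood at −0.69 and −0.67 in parental and 0.04 and −0.06 in SETD2-mutant cells, and rose by 0.68 (SE 0.141, 9 of 10 guides up, adjusted p = 0.0105). Its 30 uncalled neighbours on chromosome 15 had a median of −0.24, and the part of that region in its change was not tested. The *MORF4L1* call was lost without either parental replicate (adjusted p 0.0976 without replicate 1, 0.0670 without replicate 2) and without SETD2-mutant replicate 1 (0.0978), and at a rank share limit of 0.1 (0.179).

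**Figure D3:**
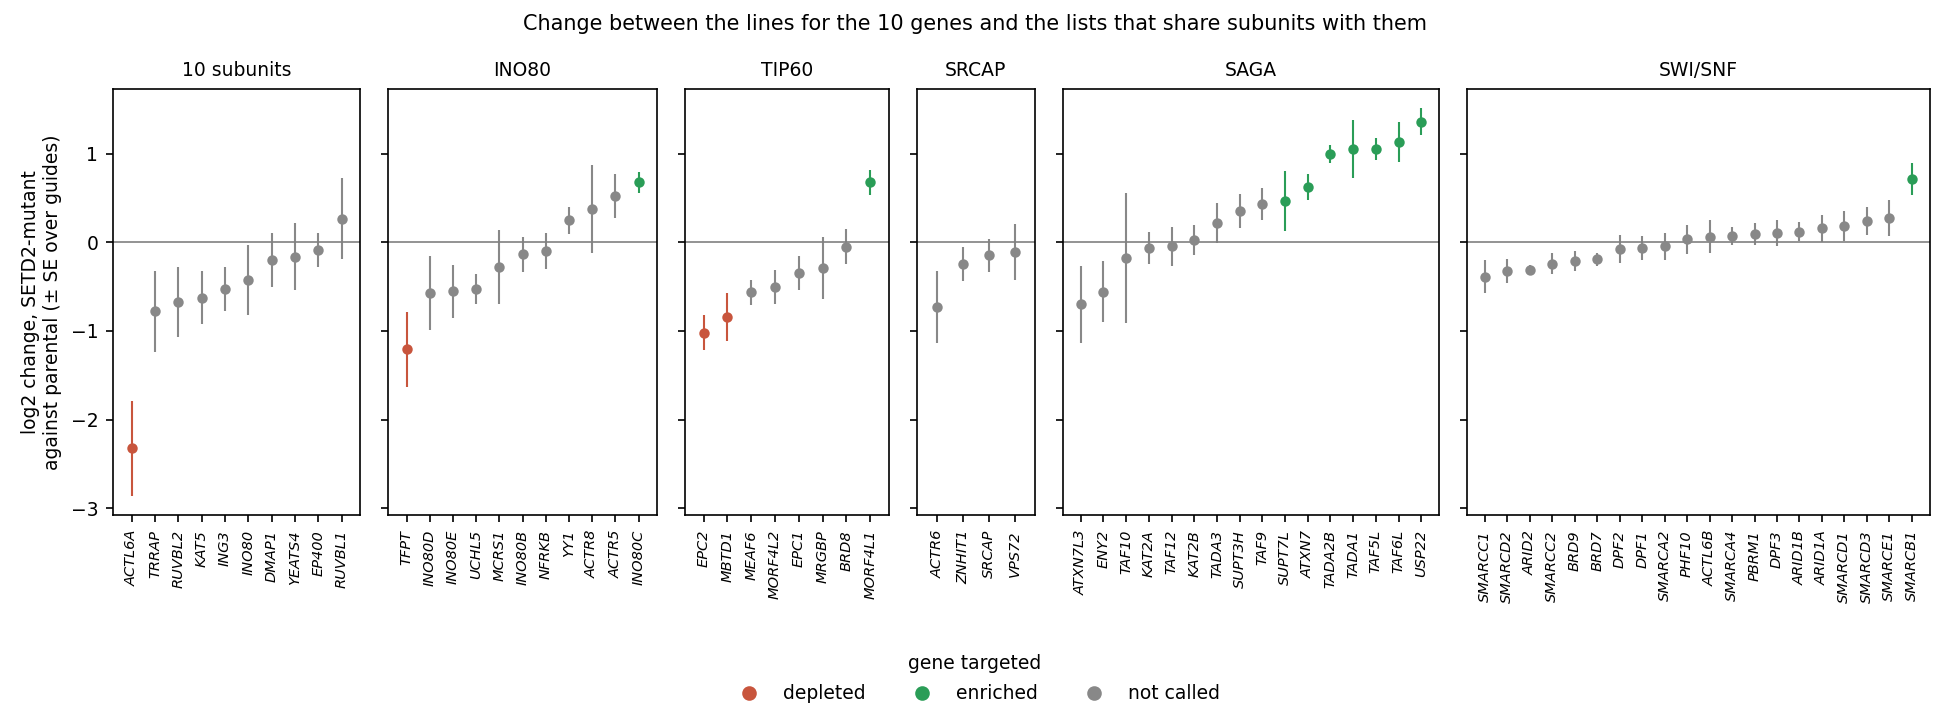
Log2 change of SETD2-mutant against parental cells (vertical axis, mean over guides ± SE over guides) for each gene (horizontal axis) in 6 panels: the 10 subunits, the other INO80, TIP60 and SRCAP genes, SAGA and SWI/SNF, with depleted genes in red, enriched genes in green and uncalled genes in grey. *ACTL6A* at −2.33 is the lowest gene shown. Of 16 SAGA genes 7 are enriched (1.03% of all genes were) and 5 lie below 0, the lowest *ATXN7L3* at −0.70, and *TRRAP* lies at −0.78.

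SWI/SNF and SAGA, which each share a subunit with the 10 genes, differed from each other in their changes. ACTL6A also takes part in SWI/SNF. Of 20 measured SWI/SNF genes 1 was depleted in parental and 0 in SETD2-mutant cells by edgeR with RRA (9.90% and 9.04% of all genes). With an unadjusted p under 0.05 there were 3 and 1. Limma on gene means called 5 and 8 depleted, but also 31.5% and 38.1% of all genes. Changes of the SWI/SNF genes ran from −0.81 to 0.35 in parental and from −0.58 to 0.45 in SETD2-mutant cells. Each gene of the list was less depleted than *ACTL6A* in both lines. Between the lines 0 of the SWI/SNF genes were depleted, where 1.28% of all genes were. With an unadjusted p under 0.05 there was 1 (7.53% of all genes), and limma called 5 (22.4% of all genes). Enriched was 1 gene, where 1.03% of all genes were. It was the core subunit *SMARCB1*, at 0.71 (SE 0.182, adjusted p = 2.11e-06 by edgeR and RRA). The motor *SMARCA4* stood at −0.56 in parental and −0.49 in SETD2-mutant cells and was not called, and the neuronal paralog *ACTL6B* stood at −0.20 and −0.14.

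SAGA, the other home of TRRAP, had 9 of 16 measured genes depleted in parental cells and 3 in SETD2-mutant cells. Of all genes 9.90% and 9.04% were. Between the lines 7 were enriched and 0 depleted, where 1.03% and 1.28% of all genes were. With an unadjusted p under 0.05 there were 9 enriched and 1 depleted. Limma on gene means called 10 enriched and 1 depleted, but also 12.8% and 22.4% of all genes. The deubiquitinase *USP22* rose by 1.36 (SE 0.151), *TAF6L* by 1.13 (SE 0.229), *TAF5L* by 1.05 (SE 0.120), *TADA1* by 1.05 (SE 0.326) and *TADA2B* by 1.00 (SE 0.103), with adjusted p of at most 0.00364 by edgeR and RRA, and *ATXN7* and *SUPT7L* rose by 0.62 and 0.47. Without SETD2-mutant replicate 2 the calls of *ATXN7* (adjusted p = 0.144) and *SUPT7L* (0.0886) were lost and 5 SAGA genes were enriched. Both were also lost with limma per guide (0.10 and 0.0750), and *ATXN7* at equal ribosomal dropout (0.166). *TRRAP* itself stood at −0.78 and was not called. Of the 16 SAGA genes 5 were also below 0 between the lines, the lowest being *ATXN7L3* (−0.70) and *ENY2* (−0.56), with neither called. Both were depleted against library in each line, *ATXN7L3* at −2.02 in parental and −2.72 in SETD2-mutant cells and *ENY2* at −2.82 and −3.38. *MYC*, whose product binds TRRAP, was depleted by −6.42 in parental and −5.12 in SETD2-mutant cells and its partner *MAX* by −2.37 and −2.28, with neither called between the lines. All guides to *MYC* summed to 93 and 106 counts in the parental and 79 and 122 in the SETD2-mutant replicates. These counts are too few to size a gap between the lines. Of 6 measured genes of the PI3-kinase-related kinases and their assembly, all were depleted in parental cells and 5 in SETD2-mutant cells. Among all genes the shares were 9.90% and 9.04%. *SMG1* stood at −2.19 and −3.04 and *ATR* at −2.65 and −2.88. Between the lines 0 of the 6 were called, where 1.28% of all genes were depleted and 1.03% enriched.

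Over the 4 cell samples, the 5 genes whose changes from library were closest to those of *ACTL6A* by Euclidean distance included *RPL27* (0.810), *MAT2A* (0.854), *SLC35B1* (0.872) and *EEF2* (0.880). *RPL27*, a protein of the large ribosomal subunit, stood at −3.02 and −3.18 in the parental replicates and −4.54 and −4.68 in the SETD2-mutant replicates. None of these 4 is a subunit of the remodellers.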

How the data were processed

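The authors deposited raw counts per guide, whole numbers with no scaling. MAGeCK and hg38 are named, per the submitters' processing notes, without a version or a role. Guides averaging at least 30 counts in the library were kept, TMM-scaled and fitted by group over all 6 samples with edgeR 4.0.16 (R 4.3.3, robust quasi-likelihood). Genes were scored by RRA (rank share limit 0.25, at least 3 guides), using the exact null distribution of its score in place of MAGeCK's drawn one. P-values were adjusted by Benjamini-Hochberg over 7090 genes in each direction and called below 0.05. The steps were tested on simulated counts. Values per sample are means over guides of log2 CPM with a prior count of 2, from the deposited counts. Alternatives used limma 3.58.1, DESeq2 1.42.0, other scalings and filters, the replicate number as a block, and fits with 1 sample left out. A floor of 3 counts, and the settings for SAGA and SWI/SNF genes, were added after seeing the data.

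Per the labels, samples share a replicate number across groups, and nothing says that it marks a shared batch. Over 71470 guides the difference between replicates 1 and 2 had a correlation of −0.005 between parental and SETD2-mutant cells, so the numbers were not taken to pair the samples. Replicates of a line were split after transduction, so the guide tests reflect the spread among these samples alone. That spread was estimated over all 6 samples, including the library samples, whose replicates differed far less than those of the cells. The gene p-values come from the ranks of guides and measure agreement among the guides to a gene, not spread among samples. Earlier results of these data were known when the members, the gene lists and the rule on which genes to name were set. The rule names all 10 members, the called genes of the other lists and otherwise up to 4 of a list with the lowest RRA p, and the 5 genes closest in profile to the member with the largest change between the lines, of which 1 is not reported here. In SAGA and the list of PI3-kinase-related kinases, not every gene called only against library is named. Guides printed are all those of members called between the lines, and the most and least depleted in parental cells of each other member. Gene coordinates are from RefSeq on GRCh38. Spacer sequences and cut sites were not used here.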

Additional observations from a re-analysis of the deposited data

Results flagged for a closer look

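The change from library differed between the cell lines by the edgeR and RRA test for 14 of the measured subunits of the 3 complexes, SAGA and SWI/SNF. Of the 10 subunits this was *ACTL6A* at −2.33 (SETD2-mutant minus parental). Among the other subunits of the 3 complexes it was *TFPT* at −1.21, *EPC2* at −1.02, *MBTD1* at −0.84, *INO80C* at 0.67 and *MORF4L1* at 0.68. In SAGA it was *USP22* at 1.36, *TAF6L* at 1.13, *TAF5L* at 1.05, *TADA1* at 1.05, *TADA2B* at 1.00, *ATXN7* at 0.62 and *SUPT7L* at 0.47, and in SWI/SNF *SMARCB1* at 0.71.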

How the results depend on the processing

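The number of the 10 genes depleted between the lines, 1 as reported, was 0 with dummyguide scaling, DESeq2 per guide, only the 2 groups fitted, a rank share limit of 0.1 and counts under 3 set to 3, 5 by limma on gene means and 7 by summed counts, which also called 1 enriched. Leaving out 1 sample gave 0 to 1, with 0 without parental replicate 2 and without SETD2-mutant replicate 1. Against library, 8 to 10 were depleted in parental and 7 to 10 in SETD2-mutant cells over the alternatives. Of the 23 other subunits, limma and summed counts called 11 and 13 depleted and 4 and 5 enriched between the lines, where 3 and 2 were reported. These tests called 22.4% and 21.2% of all genes depleted and 12.8% and 20.0% enriched. A limit of 0.1 gave 1 of the 23 enriched. Leaving out 1 sample gave 1 to 3 depleted and 1 to 2 enriched. In parental cells 19 were depleted by limma and by summed counts and 6 at a limit of 0.1, and 1 was enriched with library totals, dummyguide scaling, a filter of 100 counts, a limit of 0.1 and the replicate block, and 1 to 2 with 1 sample left out. In SETD2-mutant cells 20 were depleted by limma and by summed counts and 7 at a limit of 0.1. Against library, limma and summed counts called 31.5% and 30.3% of all genes depleted in parental and 38.1% and 32.7% in SETD2-mutant cells. Limma and summed counts each called 1 SAGA gene and 5 SWI/SNF genes depleted between the lines, and 3 and 7 SWI/SNF genes enriched. The shares of all genes called by these tests are those given above. The cause of these differences was not tested.

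Signs turned between the lines for *RUVBL1* (−0.97 without SETD2-mutant replicate 2, in a range up to 0.57 with 1 sample left out), *YEATS4* (0.0081 without SETD2-mutant replicate 2, in a range down to −0.49, and 0.194 at equal ribosomal dropout), *DMAP1* (0.0531 with summed counts, 0.129 at equal dropout) and *EP400* (0.0135 at equal dropout). With the replicate number as a block *ACTL6A* stood at −2.32 (adjusted p = 0.0115 by edgeR and RRA), and the block changed no count of the 10 genes. Guides near 0 counts limit the size of the *ACTL6A* change, and 2 samples a group limit every test.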
